A study of Mus musculus with 10 samples.

Results

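The genes described here encode the oxidative phosphorylation system of mouse mitochondria. Members were the protein-coding genes of the deposited table whose symbols begin with mt- or name a subunit of the families Nduf, Sdh, Uqcr, Cox4 to Cox8 or Atp5. This rule took 96 of 53801 genes, of which 13 lie in the mitochondrial genome and 83 in the nucleus. By symbol, 44 belonged to complex I (37 nuclear and 7 mitochondrial), 4 to complex II (all nuclear), 9 to complex III (8 and 1), 21 to complex IV (18 and 3) and 18 to complex V (16 and 2). The rule reads names only, so it misses the subunits Ndufab1 and Cyc1 and counts Ndufa4, now regarded as a complex IV subunit, under complex I. It also counts Atp5s, which RefSeq names Dmac2l, under complex V.

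Oxidative phosphorylation takes electrons from NADH through complex I (NADH dehydrogenase) and from succinate through complex II (succinate dehydrogenase), passes them through complex III (the cytochrome bc1 complex) to complex IV (cytochrome c oxidase), and uses the resulting proton gradient to make ATP at complex V (ATP synthase). Every complex except complex II is built from proteins of both genomes, so the nuclear and mitochondrial genes supply partners of the same assembly. In the developing cortex, radial glia are known for relying strongly on glycolysis, and neurons for relying more on mitochondrial respiration.

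The libraries came from the dorsal brain of WT mice electroporated in utero at embryonic day 12 with StarTrack, a set of reporter plasmids that marks electroporated progenitors and their descendants. At embryonic day 14 cells were dissociated and sorted by flow cytometry into NG2+ and GFAP+ populations, with 5 bulk RNA libraries for each, all of batch 1 and all labelled as neural stem cells. NG2 is a proteoglycan encoded by Cspg4, and GFAP is a filament protein of astrocytes and some progenitors. No untreated or unsorted group was part of the comparison, and nothing in the labels says that replicates came from separate animals, so p-values measure only the spread between these libraries, which may be technical.

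Library totals ran from 12945436 to 17569730 counts. Cspg4 was higher in the NG2 libraries (6.75 ± 1.47 CPM, SD, n = 5) than in the GFAP libraries (1.07 ± 0.356 CPM, n = 5), with a log2 fold change of 2.64 (SE 0.30, edgeR quasi-likelihood test, Benjamini-Hochberg adjusted p = 0.00256). Gfap itself was near 0 in both, with 0 to 0.341 CPM across NG2 libraries and 0 to 0.427 CPM across GFAP libraries, below the depth needed for a test. Markers of radial glia summed to 987.3 to 1728 CPM in NG2 and 1581 to 2259 CPM in GFAP libraries. The 10 markers of newborn and differentiating neurons summed to 5377 to 7460 CPM in NG2 and 4282 to 5541 CPM in GFAP libraries, so both sorts held transcripts of neurons as well as of progenitors. In bulk RNA, fewer cells of a type and less RNA per cell cannot be told apart.

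The members took a similar part of the RNA in both populations. The 13 mitochondrially encoded genes took 0.619%, 0.502%, 0.622%, 0.567% and 0.474% of counts in NG2 libraries 1 to 5, and 0.503%, 0.515%, 0.571%, 0.471% and 0.483% in GFAP libraries 1 to 5. Their mean share was 0.557% ± 0.0672 (SD, n = 5) in NG2 and 0.509% ± 0.0388 (n = 5) in GFAP. NG2 1 and NG2 3 lay above every GFAP library, NG2 5 lay at the level of the lowest GFAP libraries, and the groups overlapped. NG2 5 also stood apart in the number of genes with a read, 18903 at the largest total of all libraries, beside 22988 to 24444 in the others; the part of this in its mitochondrial share and ratio was not tested.

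The 83 nuclear genes took 1.47%, 1.41%, 1.69%, 1.49% and 1.51% of counts in NG2 libraries 1 to 5, and 1.33%, 1.52%, 1.502%, 1.37% and 1.36% in GFAP libraries 1 to 5. The means were 1.51% ± 0.103 in NG2 and 1.42% ± 0.0874 in GFAP (SD, n = 5 each). Only NG2 3 stood above all GFAP libraries, and the other NG2 libraries lay within the GFAP range. Mitochondrial counts per nuclear member count came to 0.368 ± 0.0388 in NG2 and 0.359 ± 0.0192 in GFAP, a difference of 0.00861 that is smaller than the SD of either group and that turned to -0.00481 without NG2 1. The ratio ranged more widely within the NG2 group, from 0.315 in NG2 5 to 0.422 in NG2 1, with the GFAP libraries between 0.340 and 0.380.

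**Figure D1:**
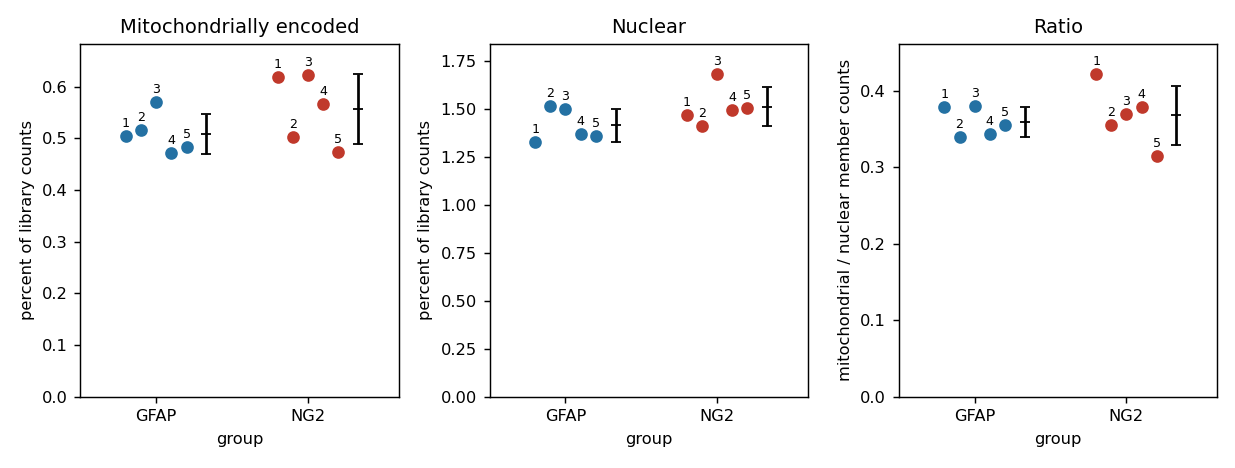
Percent of library counts from the 13 mitochondrially encoded members (left) and the 83 nuclear members (middle), and the ratio of the first to the second (right), on axes that start at 0. Points are libraries with their replicate number, bars are mean ± SD of 5 libraries, and in each panel the NG2 and GFAP libraries overlap. The mitochondrial sums include genes with shared sequence, whose counts are uncertain.

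Of the 96 members, 89 passed edgeR's filter on low counts and were tested, 12 of them mitochondrial and 77 nuclear. The other 7 were mt-Nd4l, Ndufs3, Cox6a2, Cox7a1, Cox7b2, Cox8b and Cox8c. No member passed an adjusted p of 0.05 in either direction by edgeR's quasi-likelihood test, where 0.0741% of all 16187 tested genes were called higher in NG2 and 0.0741% lower. At an unadjusted p under 0.05, 13 members were higher in NG2 (14.6% of those tested, against 6.45% of all genes) and 0 were lower (against 6.33% of all genes). The smallest adjusted p among the members was 0.209, for mt-Co3.

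The differences were small and mostly of 1 sign. Estimated log2 fold changes (NG2 minus GFAP) were above 0 for 83 of the 89 tested members, or 93.3%, beside 48.5% of all tested genes, and below 0 for 6, beside 51.5%. Their median was 0.15, with quartiles of 0.10 and 0.21, while all tested genes had a median of -0.01 and quartiles of -0.21 and 0.15. Mitochondrial members had a median of 0.18 with 11 of 12 above 0, and nuclear members a median of 0.15 with 72 of 77 above 0. The members below 0 were mt-Nd6, Ndufa4l2, Cox6b2, Cox4i2, Sdha and Atp5s, none of them past the test. These genes vary together across libraries, so the count of signs is not a count of independent results.

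NG2 3 had the highest value of all 10 libraries for 71 of the 89 tested members, 9 mitochondrial and 62 nuclear. The like share of all tested genes was not taken. The TMM scaling factor was lowest for NG2 3 (0.927), which raises every CPM of that library. The median member stood 0.40 (mitochondrial) and 0.33 (nuclear) log2 units above its mean of the 10 libraries in NG2 3, and the other NG2 libraries lay between -0.21 and 0.19 for mitochondrial members and between -0.01 and 0.04 for nuclear members. GFAP libraries lay between -0.17 and 0.04 for mitochondrial and between -0.21 and 0.05 for nuclear members. Without NG2 3 the medians were 0.09 for mitochondrial members (10 of 12 above 0) and 0.09 for nuclear members (67 of 77 above 0). By complex, the nuclear medians without NG2 3 were 0.10 (I), 0.02 (II), 0.09 (III), 0.09 (IV) and 0.05 (V). NG2 3 also had the highest sum of neuronal markers, of which 10 of 10 had log2 fold changes above 0 (median 0.35). The highest sum of erythroid markers (509 CPM) and the lowest of microglial markers (23.4 CPM) were in NG2 3 too. GFAP 2 had the lowest neuronal sum. Its nuclear member share (1.52% of counts) was the highest of the GFAP libraries, while by the median nuclear member GFAP 3 (0.048) stood above GFAP 2 (0.033). Radial glial markers had 10 of 10 fold changes below 0 (median -0.46) and intermediate progenitor markers 5 of 6 (median -0.26). Microglial markers were above 0 in 7 of 7 tested (median 1.02), with sums of 23.4 to 308 CPM in NG2 and 36.4 to 143 CPM in GFAP libraries. None of these markers passed the test, and their part in the members' differences was not tested.

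**Figure D2:**
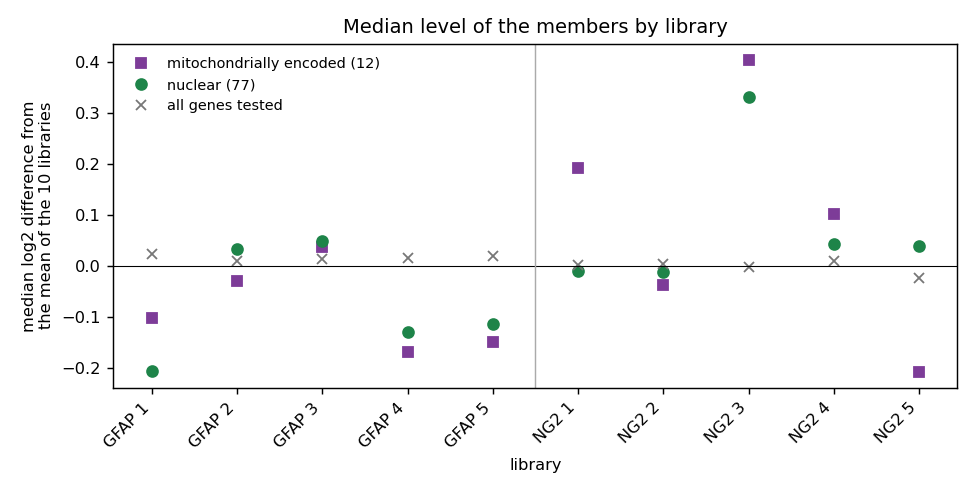
Median log2 difference of the tested members from their mean over the 10 libraries (vertical axis) in each library, for 12 mitochondrial members (squares), 77 nuclear members (circles) and all tested genes (crosses). NG2 3 stands highest for both sets, at 0.40 and 0.33. All tested genes stay near 0, which the TMM scaling largely sets in advance.

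Other count models gave other numbers of calls on the same libraries. DESeq2's Wald test called 1 of 86 members with an adjusted p, mt-Co3, as higher in NG2 (adjusted p = 0.0498), where it called 1.6% of all genes higher, and 0 lower, where it called 1.01%. The limma voom model, which weights libraries by their quality, called 11 of 89 members higher (12.4%), where it called 3.61% of all genes higher, and 0 lower, where it called 5.29%. Those 11 were mt-Co3, mt-Cytb, mt-Nd3, Atp5g1, Atp5o, Cox5a, Ndufa11, Ndufa8, Ndufb5, Ndufb6 and Ndufb9. Their voom log2 fold changes ran from 0.26 for Atp5o to 0.64 for mt-Nd3.

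**Figure D3:**
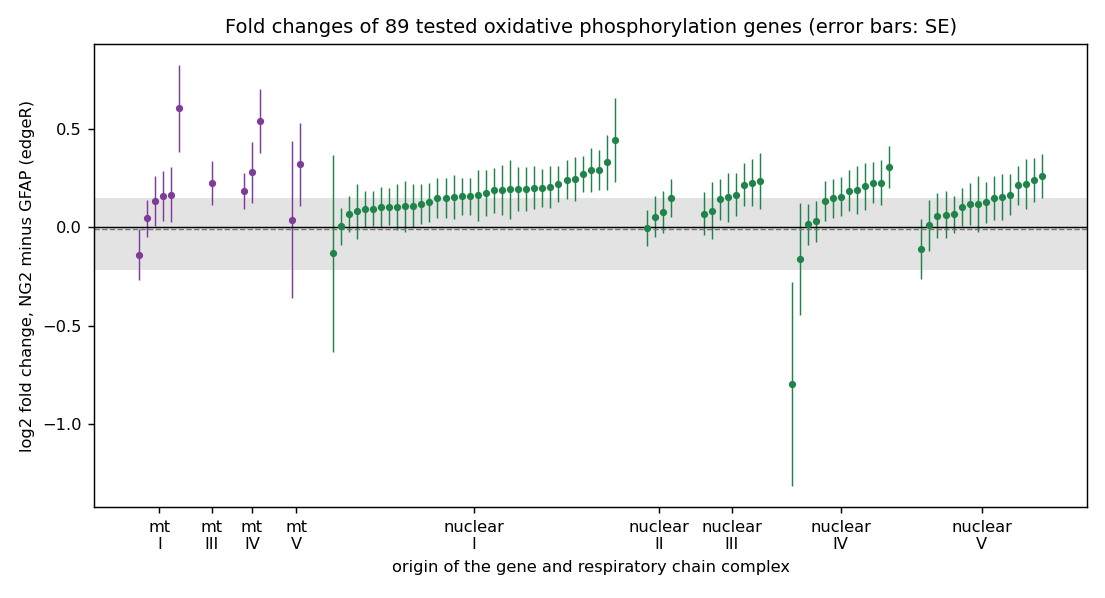
Log2 fold change with its SE (vertical axis, NG2 minus GFAP) for the 89 tested members, grouped by genome and complex and sorted within each group. The dashed line and grey band are the median and quartiles of all 16187 tested genes (-0.01, -0.21 and 0.15), and no member passed the edgeR threshold.

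Within the mitochondrial genome the levels of the 13 genes differed by far more than the populations did. The gene for cytochrome b of complex III, mt-Cytb (MT:14145-15288, ENSMUSG00000064370), was highest at 1763 ± 254 FPKM in NG2 and 1493 ± 155 FPKM in GFAP (SD, n = 5 each). FPKM scales the reads of a gene by its length and by the size of the library, so it is used here to compare genes. Such a comparison depends on the deposited gene length and on which reads were counted. Next were mt-Nd1, a membrane subunit of complex I, at 1087 ± 201 and 965 ± 114 FPKM, and mt-Co1, the catalytic subunit of complex IV, at 892 ± 60.5 and 778 ± 86.3 FPKM. The complex I genes mt-Nd4 (311 ± 64.4 and 281 ± 19.1 FPKM), mt-Nd2 (258 ± 60.6 and 228 ± 19.7 FPKM), mt-Nd5 (199 ± 22.2 and 191 ± 12.5 FPKM) and mt-Nd6 (167 ± 33.1 and 183 ± 15.8 FPKM) followed. Neighbours in this order from mt-Nd4 to mt-Nd6 overlapped across the NG2 libraries, and mt-Nd1 and mt-Co1 overlapped in both groups. Within each group, every library had mt-Cytb above the highest mt-Nd1 value.

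The remaining 6 genes lie side by side between mt-Co1 and mt-Nd4 and were all below 30 FPKM on average. They were mt-Co2 (29.9 ± 6.37 FPKM in NG2 and 24.4 ± 2.67 in GFAP), mt-Co3 (25.4 ± 5.65 and 17.3 ± 2.24), mt-Nd3 (23.4 ± 4.72 and 15.2 ± 3.8), mt-Atp6 (21.1 ± 7.82 and 16.7 ± 1.51), mt-Atp8 (4.47 ± 0.978 and 4.28 ± 1.44) and mt-Nd4l (2.285 ± 0.830 and 1.73 ± 0.933). Mitochondrial genes are transcribed as long shared precursors that are then cut. Even so, subunits of the same complex were counted at unlike levels: mt-Co1 was at 835 FPKM over all libraries, and mt-Co2 and mt-Co3 at 27.1 and 21.3 FPKM.

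For 5 of those 6 genes, nearly the whole sequence also occurs elsewhere in the annotated transcripts. Of all 100-base windows, another gene held 99.5% for mt-Co2, 99.5% for mt-Atp6, 99.8% for mt-Co3, 97.6% for mt-Nd3 and 98.5% for mt-Nd4l, 60.8% for mt-Nd4, 30.8% for mt-Co1 and 3.19% for mt-Nd2. The other mitochondrial genes shared none. The matches compared in full are the annotated pseudogenes Gm28661, Gm10925, Gm28437, Gm28438, Gm10222 and Gm28439, which lie together on chromosome 1 (GRCm38, from 24611535 to 24615565, minus strand), next to Gm29216, a shorter copy of mt-Co1. The copies of mt-Co2, mt-Atp6, mt-Co3, mt-Nd4l and mt-Nd4 had 0 differences over 681, 678, 783, 294 and 876 aligned bases. The mt-Nd3 copy had 1 difference in 345 bases, T3C, with positions counted from 1 at the first base of mt-Nd3 and the base of mt-Nd3 given first. The stretches printed next are shown because a read from inside an identical stretch matches both places: the first pair gives that difference in capitals, and the second pair, from inside mt-Co3 and its copy, is identical (GENCODE M21, 5′ to 3′).
mt-Nd3 (MT:9459-9518, plus strand): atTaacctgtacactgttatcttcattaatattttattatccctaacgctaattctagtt
Gm28438 (chr1:24613060-24613119, minus strand): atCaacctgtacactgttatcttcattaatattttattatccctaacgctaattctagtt
mt-Co3 (MT:8968-9027, plus strand): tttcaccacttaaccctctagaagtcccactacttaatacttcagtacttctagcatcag
Gm28437 (chr1:24613551-24613610, minus strand): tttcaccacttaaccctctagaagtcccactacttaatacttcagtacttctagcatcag

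Reads were counted at both places. Over the 10 libraries mt-Co2 had 2828 reads and Gm28661 2695, mt-Atp6 had 1961 and Gm10925 2131, and mt-Co3 had 2552 and Gm28437 1744. The pair mt-Nd3 and Gm28438 had 1026 and 46 reads, with 1 difference, at base 3, and 97.6% of mt-Nd3 windows shared. The pair mt-Nd4l and Gm10222, with 0 differences, had 90 and 53 reads. What divides the reads of a pair was not tested. The pair mt-Nd4 and Gm28439, identical over the 876 bases of the copy, had 62092 and 186 reads. This pair is unlike the others, since mt-Nd4 is 1378 bases long and 60.8% of its windows are shared. Its total can include reads from outside the copy, and reads were not split by shared and unshared part. The sources used here do not say how reads with several alignments were counted. The levels of these genes are therefore uncertain, and their low FPKM was not tested against a count that keeps such reads. The gene mt-Atp8 shared no window with another gene and was also low, at 137 reads in all. It is only 204 bases long, and its last 43 bases are also the first 43 of mt-Atp6, shown here because a read over them belongs to both genes, with the start codon of mt-Atp6 in capitals (GENCODE M21, MT:7927-7969, plus strand, 5′ to 3′).
mt-Atp8 and mt-Atp6 overlap: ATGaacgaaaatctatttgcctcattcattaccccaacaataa

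**Figure D4:**
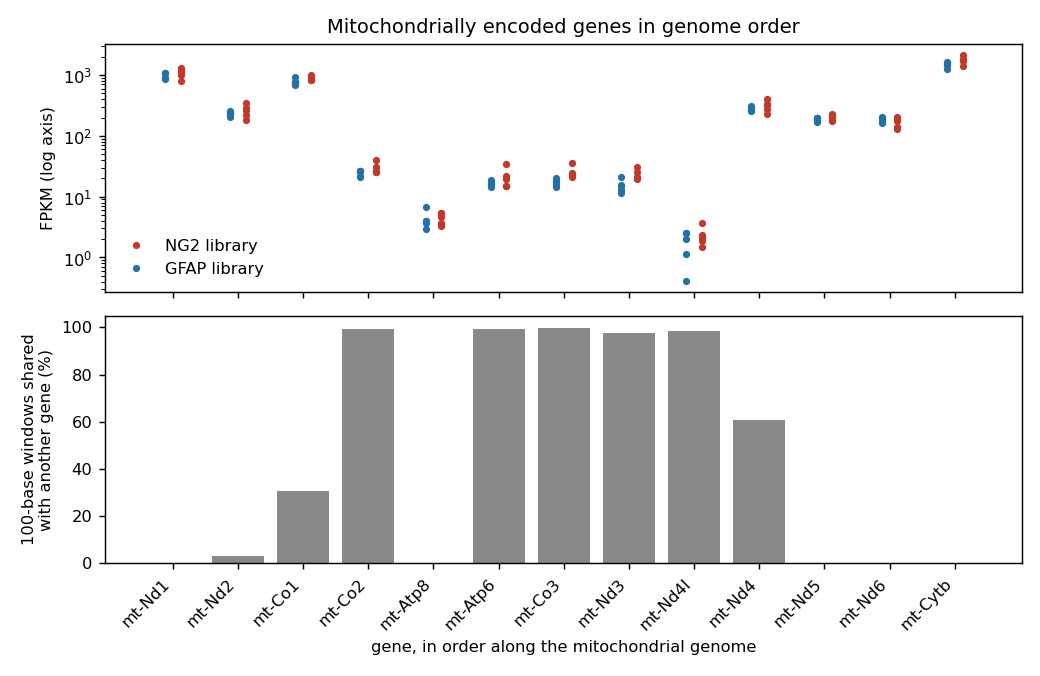
Upper panel: FPKM on a log axis of the 13 mitochondrially encoded genes in their order along the genome, with 1 point for each library. Lower panel: percent of each gene's 100-base windows that also occur in another annotated gene. The genes from mt-Co2 to mt-Nd4l were all under 30 FPKM on average, and all of them except mt-Atp8 share over 97% of windows.

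Between the populations, the mitochondrial genes with estimates furthest from 0 were among those with shared sequence. The complex IV subunit gene mt-Co3 (MT:8607-9390) stood at 18.3, 19.1, 27.7, 17.7 and 17.0 CPM in NG2 libraries 1 to 5 and at 12.5, 16.1, 14.04, 11.5 and 14.4 CPM in GFAP libraries 1 to 5. Every NG2 library was above every GFAP library, with NG2 3 far above the rest. Its log2 fold change was 0.54 (SE 0.16, edgeR quasi-likelihood test, adjusted p = 0.209). The complex I gene mt-Nd3 (MT:9459-9806) stood at 9.01, 7.16, 10.6, 7.275 and 6.76 CPM in NG2 and at 4.025, 7.47, 4.48, 5.53 and 5.31 CPM in GFAP libraries 1 to 5. GFAP 2 lay within the NG2 range, so the groups overlapped, and the log2 fold change was 0.60 (SE 0.22, adjusted p = 0.292).

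The 5 tested genes with at least 50% of windows shared had a median estimate of 0.32 (log2 fold change), and the 7 with less one of 0.16. Among the latter, mt-Cytb stood at 2123, 1918, 2427, 2028 and 1643 CPM in NG2 and at 1749, 1832, 1929, 1457 and 1698 CPM in GFAP libraries 1 to 5. NG2 1, 3 and 4 were above all GFAP libraries, NG2 5 was below all but GFAP 4, and the log2 fold change was 0.23 (SE 0.11, adjusted p = 0.407). The catalytic subunit gene mt-Co1 gave 0.18 (SE 0.09, adjusted p = 0.425), mt-Nd2 0.17 (SE 0.14), mt-Nd1 0.16 (SE 0.13) and mt-Nd5 0.05 (SE 0.09).

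The complex I gene mt-Nd6 (MT:13552-14070) is the only protein-coding gene on the other strand of the mitochondrial genome and the only mitochondrial member with an estimate below 0. It stood at 97.5, 66.5, 107, 93.45 and 72.5 CPM in NG2 and at 91.5, 85.7, 98.1, 108 and 97.4 CPM in GFAP libraries 1 to 5. The groups overlapped, with NG2 2 and NG2 5 the lowest of all, and the log2 fold change was -0.14 (SE 0.13, adjusted p = 0.693). Mitochondrial members are rich in A and T, with a median GC content of 36.5% beside 50% for all tested genes. With offsets for GC content and length, their median log2 fold change became 0.44, beside 0.21 for nuclear members and 0.07 for all genes, and mt-Nd6 turned to 0.24. Their median coefficient of variation over libraries was 20.2% in NG2 and 10.5% in GFAP, and that of nuclear members was 13.3% and 10.7%. All genes of at least 10 FPKM had 13.6% and 10.2%.

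The nuclear members were abundant in both populations. Of the 77 tested, 73 lay above the median of tested protein-coding genes (6.44 FPKM) and 62 were among the highest 10% of them. All genes in this comparison are read per length of the deposited gene model, so members with long annotated models are placed low.

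In complex I, 35 of 36 tested nuclear members had estimates above 0 and the median was 0.16. The highest by level were Ndufa2 (280 ± 37.2 FPKM in NG2 and 256 ± 21.6 in GFAP) and Ndufa1 (289 ± 58.9 and 228 ± 35.7), both small accessory subunits. The accessory subunit gene Ndufa11 (chr17:56717762-56724248, ENSMUSG00000002379) was the nuclear member with the smallest p. It stood at 128, 135, 163, 144 and 135 CPM in NG2 and at 110, 125, 126, 111 and 113 CPM in GFAP libraries 1 to 5. Every NG2 library was above every GFAP library, by little between NG2 1 and GFAP 3. The log2 fold change was 0.27 (SE 0.09, edgeR quasi-likelihood test, adjusted p = 0.258). With mt-Co3 it made 2 members whose groups did not overlap with NG2 higher, 2.25% of those tested, where 1.52% of all genes did so. In the other direction there were 0 members, where 1.76% of all genes did so.

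The accessory subunit gene Ndufb9 stood at 146, 153, 182, 145 and 143 CPM in NG2 and at 111, 132, 146, 120 and 119 CPM in GFAP libraries 1 to 5. GFAP 3 reached the level of the lower NG2 libraries, and the log2 fold change was 0.29 (SE 0.10, adjusted p = 0.272). Ndufa1 gave 0.33 (SE 0.14, adjusted p = 0.339), and Ndufa2 gave 0.12 (SE 0.10, adjusted p = 0.674).

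Complex II, which holds no mitochondrially encoded subunit and also serves the citric acid cycle, had a median of 0.07 over 4 genes. This was the lowest of the complexes in the edgeR fit but not with voom, where it was 0.16 beside 0.14 for complexes IV and V, nor with GFAP 2 and NG2 5 both left out, where it was 0.18 beside 0.17 for both. Leaving out 1 library gave from 0.02 (without NG2 3) to 0.14 (without GFAP 2). Its iron-sulfur subunit Sdhb gave 0.15 (SE 0.10, adjusted p = 0.552) and its membrane anchor Sdhd gave 0.08 (SE 0.11, adjusted p = 0.809). The flavoprotein Sdha, at 95.4 ± 6.33 FPKM in NG2 and 94.8 ± 9.47 FPKM in GFAP, differed by less than the SD of either group. A difference between complex II and the others was not tested.

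In complex III all 8 nuclear members had estimates above 0 and the median was 0.16. The small subunits Uqcr11 (252 ± 30.0 FPKM in NG2 and 223 ± 31.3 in GFAP) and Uqcr10 (183 ± 22.2 and 165 ± 15.8) were the highest. The smallest p values belonged to Uqcrq (log2 fold change 0.22, SE 0.11, adjusted p = 0.422) and Uqcrb (0.23, SE 0.12, adjusted p = 0.447), and both overlapped between groups.

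In complex IV 11 of 13 tested nuclear members had estimates above 0, with a median of 0.16. The highest nuclear member of all was Cox6a1 (chr5:115345642-115348981), a regulatory subunit of the oxidase, at 636 ± 122 FPKM in NG2 and 538 ± 38.1 in GFAP. In CPM it stood at 403, 400, 599, 441 and 402 in NG2 and at 382, 405, 409, 378 and 343 in GFAP libraries 1 to 5. Outside NG2 3 and NG2 4 the groups interleaved, and the log2 fold change was 0.23 (SE 0.12, adjusted p = 0.431). Cox5a, a subunit on the matrix side, stood at 190, 185, 253, 190 and 183 CPM in NG2 and at 151, 183, 166, 152 and 156 CPM in GFAP libraries 1 to 5. GFAP 2 alone reached the lowest NG2 libraries, and the log2 fold change was 0.31 (SE 0.11, adjusted p = 0.272). Cox6b1, on the side facing cytochrome c, gave 0.23 (SE 0.10, adjusted p = 0.379).

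In complex V 15 of 16 members had estimates above 0 and the median was 0.12. The member below 0 was Atp5s (-0.11), placed here by its symbol only. Atp5b, the catalytic beta subunit, had 547 ± 42.7 FPKM in NG2 and 518 ± 55.4 in GFAP, with a log2 fold change of 0.07 (SE 0.09, adjusted p = 0.811). Atp5c1, the gamma subunit of the central stalk, had 215 ± 30.7 and 190 ± 16.0 FPKM and gave 0.17 (SE 0.10, adjusted p = 0.537). Atp5g1, one of the genes for the c subunit of the membrane ring, gave 0.26 (SE 0.11, adjusted p = 0.350), and Atp5o, a subunit of the peripheral stalk, gave 0.21 (SE 0.10, adjusted p = 0.391). The deposited model of Atp5o overlaps Cryzl1 and Donson on the same strand and 31.0% of its windows occur in other genes, so its counts are uncertain.

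In all, 45 members overlap another gene and 26 nuclear members share at least 1 window with one. The strand setting of the counting is not given in the sources used here. The 37 tested nuclear members with neither had a median of 0.15, with 34 above 0, the same as for all nuclear members.

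Several subunits come in paralogous forms, of which one is known as the general form and the other as restricted to heart and muscle, lung or testis. The general forms dominated in all 10 libraries. Cox4i1 had 269 ± 40.1 FPKM in NG2 and 234 ± 16.1 in GFAP, and Cox4i2, known as the lung form, had 0.656 ± 0.377 and 1.13 ± 0.345. Cox6a1 stood beside 4 reads in all for the muscle form Cox6a2. Cox6b1 had 417 ± 50.1 and 353 ± 35.7 FPKM, and the testis form Cox6b2 had 3.74 ± 1.17 and 4.14 ± 1.18. Cox8a had 397 ± 36.1 and 353 ± 41.1 FPKM, whereas Cox8b had 4 reads and Cox8c 0 reads over all libraries. Cox7b had 120 ± 18 and 103 ± 15.4 FPKM, and Cox7b2 had 5 reads in all.

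The Cox7a family showed 2 forms at substantial levels. Cox7a2, the general form, had 204 ± 31.8 FPKM in NG2 and 177 ± 25.8 in GFAP, and Cox7a2l, a factor of supercomplex assembly, had 91.4 ± 12.5 and 88.7 ± 8.20. The muscle form Cox7a1 had 0.909 ± 0.435 and 1.16 ± 0.422 FPKM. Ndufa4 had 164 ± 27.3 and 145 ± 23.7 FPKM, and its hypoxia-inducible paralogue Ndufa4l2 had 1.04 ± 0.544 and 1.12 ± 0.389. The 3 genes for the c subunit of ATP synthase encode the same mature protein, and their order was Atp5g3 (176 ± 21.2 and 148 ± 21.1 FPKM), Atp5g2 (73.3 ± 10.1 and 65.6 ± 7.18) and Atp5g1 (31.6 ± 4.13 and 26.1 ± 3.45), without overlap between neighbours. The order of the last pair rests on the deposited model lengths of 1675 bases for Atp5g2 and 4912 for Atp5g1: not scaled by length, Atp5g1 had 156 ± 20.3 and 130 ± 16.9 CPM and Atp5g2 123 ± 17.2 and 111 ± 11.9 CPM.

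Cox4i2, the lowest estimate of any member, rested on few reads. It had 13, 5, 9, 10 and 2 reads in NG2 libraries 1 to 5 and 13, 18, 13, 16 and 7 in GFAP libraries 1 to 5. The groups overlapped, since NG2 1 and GFAP 1 had equal counts, and the log2 fold change was -0.80 (SE 0.52, adjusted p = 0.552). Cox6b2 gave -0.16 (SE 0.28, adjusted p = 0.861) and Ndufa4l2 -0.13 (SE 0.50, adjusted p = 0.945), and both changed sign when single libraries were left out.

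**Figure D5:**
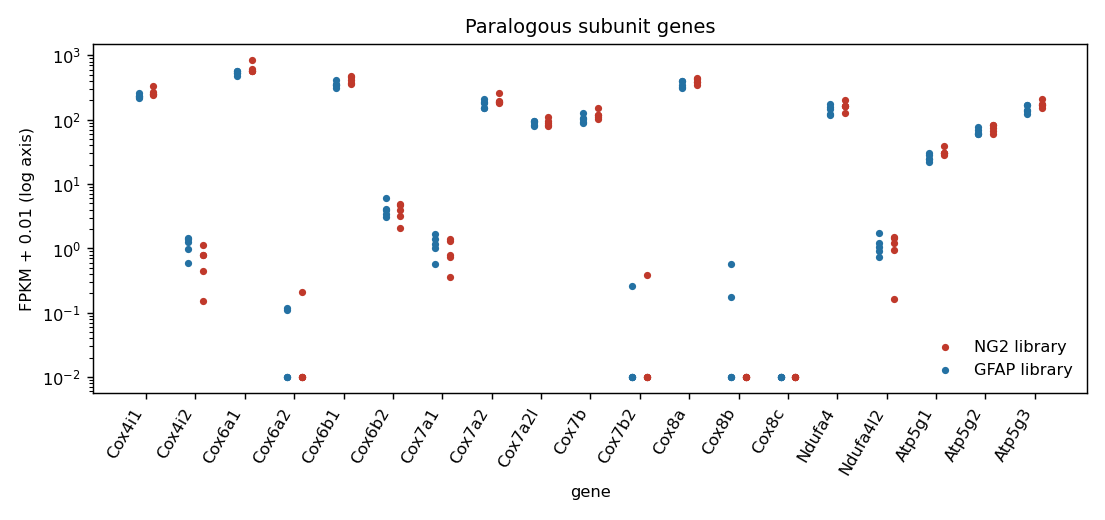
FPKM plus 0.01 on a log axis for 19 paralogous subunit genes, with 1 point for each library and NG2 and GFAP libraries side by side. Points at the bottom are libraries with 0 reads, and the general forms such as Cox4i1, Cox6a1 and Cox8a stand at least 100-fold above Cox4i2, Cox6a2 and Cox8b.

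Ndufs3, Uqcrc1 and Atp5a1 had low counts for subunits of these enzymes. They were chosen after their values were seen. Ndufs3, a core subunit of complex I, had 8 reads over all libraries, in NG2 1, NG2 4, GFAP 1 and GFAP 4 only. Uqcrc1, a core protein of complex III, averaged 6.44 FPKM beside 79.7 FPKM for its partner Uqcrc2. Atp5a1, the alpha subunit that pairs with the beta subunit in ATP synthase, averaged 14.8 FPKM beside 533 FPKM for Atp5b. Both Uqcrc1 and Atp5a1 shared no window with another gene, and Ndufs3 shared 19.8%. Some protein-coding genes within 200 kb of them also averaged under 1 read per library. These were 4 of 10 near Ndufs3, among them Celf1 with 0 reads, and 6 of 15 near Uqcrc1, among them Celsr3 with 0 reads. Near Atp5a1 it was 1 of 4, Epg5. In the whole table, which holds genes of all biotypes, 22695 of 53801 genes had 0 reads, a different set and threshold. The share of all protein-coding genes under 1 read was not taken, so these counts do not show whether the neighbourhoods are unusual. What links these low values was not tested, and the levels of these 3 genes should be read as counted reads only.

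NRF1 is a transcription factor known for binding promoters of nuclear respiratory genes, and a core of its motif, the letters GCGC, then any base and T, then GCGC again, was looked for on both strands of the RefSeq promoter windows (GRCm38.p6, 250 bases before to 50 after each start site, a place matching on both strands being counted once). A promoter was matched for 68 of the 83 nuclear members. The letters occurred in 17 of those 68 (25%) and in 1402 of all 27025 genes with a promoter (5.19%). The latter were not limited to expressed genes or to promoters of like GC content, and no such share was taken. Ndufa11 (the smallest p among nuclear members), Cox6a1 (the highest level) and Sdhd (a complex II subunit) are shown as examples, with the 200 bases before the start site, 5′ to 3′ along the gene's strand and the matches in capitals. A match describes letters and does not show binding.
Ndufa11 (chr17:56717562-56717761, plus strand): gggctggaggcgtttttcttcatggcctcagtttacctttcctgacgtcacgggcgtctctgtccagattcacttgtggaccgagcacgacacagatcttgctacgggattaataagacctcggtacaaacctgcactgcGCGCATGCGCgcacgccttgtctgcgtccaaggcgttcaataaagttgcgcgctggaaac
Cox6a1 (chr5:115348959-115349158, minus strand): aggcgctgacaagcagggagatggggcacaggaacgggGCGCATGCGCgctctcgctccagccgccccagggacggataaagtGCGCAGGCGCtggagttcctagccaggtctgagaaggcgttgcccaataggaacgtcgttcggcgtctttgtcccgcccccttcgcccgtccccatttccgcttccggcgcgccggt
Sdhd (chr9:50603850-50604049, minus strand): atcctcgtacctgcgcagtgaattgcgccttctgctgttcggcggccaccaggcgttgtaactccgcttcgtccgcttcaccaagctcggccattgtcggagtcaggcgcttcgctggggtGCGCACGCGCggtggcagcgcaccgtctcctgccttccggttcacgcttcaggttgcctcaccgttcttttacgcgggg

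Genes that serve the same system were read beside the members. Mitochondrial ribosomal proteins, which translate the 13 mitochondrial messages, had a median of 0.10 (log2 fold change) with 60 of 76 above 0, and the smallest p belonged to Mrpl34 (0.25, SE 0.10, edgeR adjusted p = 0.327). Assembly factors had a median of 0.10 with 33 of 46 above 0, and Coa7, a factor of complex IV assembly, gave 0.37 (SE 0.11, adjusted p = 0.194). Subunits and carriers outside the naming rule had a median of 0.12 with 12 of 14 above 0, and Atpif1, the inhibitor of ATP synthase hydrolysis, gave 0.28 (SE 0.10, adjusted p = 0.276).

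Genes that maintain and transcribe mitochondrial DNA had a median of -0.01 with 12 of 28 above 0, which is the median of all genes. Slirp, which stabilises mitochondrial messages, gave 0.50 (SE 0.21, adjusted p = 0.351). Nuclear regulators of mitochondrial genes had a median of -0.11 with 4 of 15 above 0, and Esrra, a nuclear receptor that drives such genes, gave 0.36 (SE 0.16, adjusted p = 0.366). Genes of the citric acid cycle and of pyruvate entry had a median of 0.03 with 16 of 23 above 0. The smallest p there belonged to Pdk1, a kinase that inhibits pyruvate dehydrogenase, with 25.1 ± 2.50 CPM across NG2 libraries and 37.6 ± 3.30 CPM across GFAP libraries (SD, n = 5 each), with a log2 fold change of -0.58 (SE 0.11, adjusted p = 0.0616). No gene of these 6 lists passed the threshold in either direction.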

How the data were processed

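Bulk RNA was amplified with SMARTer chemistry, poly(A) enriched and sequenced in pairs on a NovaSeq, per the labels' protocols, with no molecular identifiers named, so sampling error is understated by depth. The authors deposited raw read counts per gene, made with HISAT2 and featureCounts 1.5.0-p3 on GRCm38.p6 per the submitters' processing notes, and FPKM values. The signal, log2 fold change and p-value columns of the authors' deposited comparison were not used. Counts were tested with edgeR 4.0.16 (R 4.3.3; TMM, default filter, quasi-likelihood test, Benjamini-Hochberg over 16187 genes, threshold 0.05). CPM are TMM-scaled. The alternatives used DESeq2 1.42.0, limma 3.58.1 and mgcv 1.9.3 smooths for GC content and length offsets. Windows of 100 bases were compared exactly among GENCODE M21 transcripts in Python 3.11.15, and copies were aligned with edlib. The fit was tested on simulated data. The deposited tables held 0 per-sample columns outside the 10 libraries. No libraries were duplicates. Named genes were all mitochondrial members, in each complex the 2 nuclear members highest in FPKM and the 2 with the smallest p, the paralogues, and 1 gene per pathway list. Members and lists were chosen with earlier results of these data known.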

Additional observations from a re-analysis of the deposited data

Results flagged for a closer look

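Of 86 sets of 5 libraries examined for named members, 11 had a library whose gap to the nearest other, divided by the range of its group, passed Dixon's 95% value of 0.71. Chance flags about 1 in 20 groups, and the members vary together. The same check was not made over all genes. In 8 of the 11 the library was NG2 3, always the highest of its group. There mt-Co3 stood at 27.7 CPM (others 17.0 to 19.1), Ndufb9 at 182 CPM (143 to 153), Cox6a1 at 599 CPM (400 to 441), Cox5a at 253 CPM (183 to 190), Cox7a2 at 246 CPM (175 to 184), Atp5c1 at 513 CPM (373 to 411), Atp5g1 at 191 CPM (139 to 154) and Atp5o at 416 CPM (318 to 344). In GFAP 4, mt-Nd5 was low at 313 CPM (others 359 to 369). In GFAP 1, mt-Atp8 was high at 1.40 CPM (0.613 to 0.835), which rests on 23 reads. In GFAP 2, Atp5b was high at 2636 CPM (2056 to 2169).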

How the results depend on the processing

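The count of members called stayed at 0 in both directions under every alternative except DESeq2 (1 higher) and voom (11 higher). Over all genes, 12 were called higher and 12 lower. The alternatives gave 58 and 37 without an expression filter, 210 and 133 with DESeq2, 584 and 857 with voom, and 109 and 154 with GFAP 2 and NG2 5 both left out, a setting chosen after seeing the data. Limma-trend on FPKM gave 3 lower with either pseudocount. Leaving out 1 library gave 3 to 70 higher and 0 to 47 lower, the largest without NG2 5. With the replicate number as a block the counts over all genes were 1 and 0, also with GC content and length offsets, and members had 0. Same-numbered libraries correlated at -0.021 to 0.083 over all genes after removal of group means, and only number 2 matched its own best. Over the tested members these correlations ran from -0.141 (number 2) to 0.461 (number 5). With 5 libraries in each group, such values cannot decide whether the numbers pair the samples. The mitochondrial median was 0.44 with GC content and length offsets and 0.44 with the block added. The NG2 minus GFAP difference in the ratio of mitochondrial to nuclear counts ranged from -0.00481 (without NG2 1) to 0.0220 (without NG2 5) when 1 library was left out. Of 944 values for 40 named genes, 920 kept direction and side of the threshold, 9 passed it and 15 changed sign, in 5 genes. These were mt-Nd6 (0.24 with the offsets, 0.25 with the block added), mt-Atp8 (-0.0134 by library size, and -0.0604 to 0.268 with 1 library left out), Ndufa4l2 (0.16 with voom, 0.082 with both libraries left out, and -0.291 to 0.156 with 1 left out), Cox6b2 (-0.259 to 0.0244 with 1 left out) and Cox7a2l (-0.017 by library size, and -0.039 to 0.0821 with 1 left out). The cause was not tested. Shared sequence, unknown strand setting and few reads for mt-Atp8, mt-Nd4l and the rare paralogues limit their values.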
